A study of Mus musculus with 2 samples.

Results

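The Mir30 family comprises 7 annotated mouse genes, Mir30a, Mir30b, Mir30c-1, Mir30c-2, Mir30d, Mir30e and Mir30f, among the 2202 microRNA genes counted here. The members were found by name, through the gene identifiers of the mouse GENCODE M21 annotation. The family was chosen with earlier results of these data known. Counts came from 2 microRNA sequencing libraries with inserts under 30 nt, both labelled as gastrocnemius, a calf muscle, of male B6CASTF1/J pups aged 4 days. B6CASTF1/J animals are first-generation hybrids of the C57BL/6 and CAST strains, and the labels give no other allele and no treatment. The libraries are labelled biological replicates 2 and 1, from separate samples of animals 4 and 3 that share a donor identifier, and form a single group without a second condition. Every comparison below is therefore between these 2 libraries.

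MicroRNAs of this family silence messenger RNAs through the bases near their 5′ end, the seed, which nearly all members have in common. A hairpin precursor is cut into a 5p and a 3p arm, and in this family the 5p arm carries the shared seed. In the mammalian heart the family is known as an abundant group of microRNAs that restrains connective tissue growth factor, a matrix-promoting protein, together with the muscle microRNA miR-133.

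The mature forms show what sets the members apart. RefSeq (GRCm38.p6) held mature forms for 5 of the 7 members, Mir30a, Mir30c-1, Mir30c-2, Mir30e and Mir30f. The 5p forms are given with bases 2 to 8, the seed, in capitals, and miR-384-5p, which has the same seed but belongs to no Mir30 gene, is added for comparison.
miR-30a-5p: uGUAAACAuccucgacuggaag
miR-30e-5p: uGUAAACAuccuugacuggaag
miR-30c-5p: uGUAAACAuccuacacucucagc
miR-384-5p: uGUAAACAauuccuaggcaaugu
miR-30f: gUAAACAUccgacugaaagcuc
The 5p forms of Mir30a, Mir30c and Mir30e are identical over their first 12 bases. Counted from the 5′ end of miR-30a-5p, miR-30e-5p differs from it by the single substitution C13U. In the RefSeq table, which holds 1738 mature entries, 4 named forms carry the seed GUAAACA, namely miR-30a-5p, miR-30c-5p, miR-30e-5p and miR-384-5p. miR-30f carries the same 7 letters 1 base earlier, so that its bases 2 to 8 are UAAACAU.

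The 3p forms fall into a pair of groups by seed. These matter for the counts because the 3p arm can tell the Mir30c genes apart, while the 5p arm cannot.
miR-30a-3p: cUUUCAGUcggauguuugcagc
miR-30e-3p: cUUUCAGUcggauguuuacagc
miR-30c-1-3p: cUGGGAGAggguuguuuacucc
miR-30c-2-3p: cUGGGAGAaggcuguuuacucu
miR-30e-3p differs from miR-30a-3p by G18A. miR-30c-2-3p differs from miR-30c-1-3p by the 3 substitutions G9A, U12C and C22U. Positions are counted from the 5′ end, and the base of miR-30a-3p or miR-30c-1-3p is given first.

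The counted genes lie in 3 genomic clusters (mm10). Mir30a (chr1:23272269-23272339, plus strand) overlaps no other annotated gene, and Mir30c-2 (chr1:23291701-23291784, plus strand) lies 19361 bases further on, in an exon of the long noncoding gene Gm27028. Mir30e (chr4:120772606-120772697) and Mir30c-1 (chr4:120769534-120769622), both on the minus strand and 2983 bases apart, each lie in an intron of Nfyc, which encodes a subunit of the transcription factor NF-Y. Mir30f is annotated on the plus strand at the same bases as Mir30e, so its reads and those of Mir30e can be told apart only by strand. Mir30d (chr15:68341208-68341289) and Mir30b (chr15:68337415-68337510) are both on the minus strand, 3697 bases apart. Mir30d lies in exons of Gm37296 and of the long noncoding gene Gm20732, and Mir30b in an exon of Gm26621.

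The hairpins of the Mir30c genes are printed with their mature arms in capitals, since the run they share bears on how their reads were counted.
Mir30c-1 hairpin: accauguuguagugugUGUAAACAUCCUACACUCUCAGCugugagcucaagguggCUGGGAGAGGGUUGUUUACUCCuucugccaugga
Mir30c-2 hairpin: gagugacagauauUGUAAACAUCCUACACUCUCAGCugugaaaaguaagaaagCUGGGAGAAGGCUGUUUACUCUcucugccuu
Both hold the same 28-base run, which begins with the whole 5p form and ends 5 bases after it. A read lying wholly within that run matches both genes. The deposited tables give reads that map to several places a line of their own, outside the genes, and how many of those were miR-30c-5p reads cannot be told from them. The counts of Mir30c-1 and Mir30c-2 are therefore uncertain as levels of either gene and may miss reads of their shared 5p form. Of the 22-base windows of each hairpin, 7 of 68 in Mir30c-1 and 7 of 63 in Mir30c-2 occur in another hairpin of the RefSeq table, against 0 of 50 in Mir30a and 0 of 71 in Mir30e.

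The libraries did not look alike in muscle markers. The library labelled replicate 2 had 3073086 sense reads on microRNA genes and that labelled replicate 1 had 4458853. Mir206, restricted to skeletal muscle, had 101 reads in replicate 2 and 652657 in replicate 1. Mir208a, restricted to the heart, had 29718 reads in replicate 2 and 59 in replicate 1. Replicate 2 thus lacked the defining marker of its labelled tissue at the level of its partner, and values are given for each library. Reads mapping to several places made up 45.1% of replicate 2 and 35.7% of replicate 1. Genes with at least 10 reads in total were scaled between libraries by the trimmed mean of M values (TMM), which sets aside genes with extreme ratios. A gene is called higher or lower in replicate 2 where an exact binomial test of its reads gave an adjusted p under 0.05, with Benjamini-Hochberg adjustment over all 410 genes tested, and its log2 ratio was 1 or more in size. Of all genes tested, 17.6% were called higher and 36.1% lower, the background for the counts of genes below. The 11 skeletal muscle microRNAs held 0.479% of microRNA reads in replicate 2 and 14.7% in replicate 1, with Mir133c at 0 in both, and of 8 tested 3 were higher and 3 lower in replicate 2. These shares leave out reads mapping to several places, and how many of those came from muscle genes cannot be told. Mir206 supplied nearly all of the assigned replicate 1 share. The other 10 genes held 0.476% in replicate 2 and 0.0907% in replicate 1, and the 3 called higher were Mir208b, Mir499 and Mir486, of which Mir208b and Mir499 lie in myosin genes that the heart also uses. The endothelial Mir126 genes held 6.62% in replicate 2 and 2.54% in replicate 1, and smooth muscle Mir143 and Mir145a 4.90% in replicate 2 and 2.17% in replicate 1, with 0 of 3 tested genes called. White blood cell genes held 0.429% in replicate 2 and 0.0793% in replicate 1, with 3 of 5 higher and 1 lower. Both red blood cell genes were higher, together 0.0979% in replicate 2 and 0.0220% in replicate 1. Epithelial genes held 0.0587% in replicate 2 and 0.0223% in replicate 1, with 3 of 7 higher and 0 lower. All 3 tested fibroblast genes were lower, the list holding 0.281% in replicate 2 and 0.591% in replicate 1. All 55 tested genes of the Dlk1-Dio3 domain, an imprinted microRNA cluster of 67 annotated genes, were lower, the domain holding 0.973% in replicate 2 and 32.9% in replicate 1. In a bulk tissue, fewer cells of a type and less RNA per cell cannot be told apart, and the part of these differences in the Mir30 values was not tested.

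Together the 7 Mir30 genes held 2.22% of the microRNA reads of replicate 2 (exact 95% interval 2.21 to 2.24%) and 1.13% of replicate 1 (1.12 to 1.14%). The sum was 68298 reads in replicate 2, against 50229 in replicate 1. The mean share of 1.67% ± 0.775 (SD, n = 2) averages libraries that differ in their tissue markers and describes neither. The share was 1.97 times as high in replicate 2, but 1.34 times with Dlk1-Dio3 genes left out of the total, at 2.24% in replicate 2 and 1.68% in replicate 1, and the summed family was 1.28 times as high under TMM. Nearly all of the family's assigned reads came from Mir30d, Mir30e and Mir30a, which made up 93.6% in replicate 2 and 98.3% in replicate 1. Reads mapping to several places, 45.1% of replicate 2 and 35.7% of replicate 1, are left out of all these values. How many of them were miR-30c-5p reads cannot be told, and the intervals do not cover them. The mature forms in the table are 22 or 23 bases long, so counts are compared between members without a correction for length.

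Mir30d had 23436 reads in replicate 2, a CPM of 7626 (counts scaled to 1000000 sense microRNA reads in each library), and 16021 in replicate 1, or 3593 CPM. Mir30e had 23209 reads in replicate 2 (7552 CPM) and 16561 in replicate 1 (3714 CPM). Mir30a had 17258 reads in replicate 2 (5616 CPM) and 16800 in replicate 1 (3768 CPM). All 3 had a higher CPM in replicate 2, and least so for Mir30a. Among the 2202 genes Mir30d ranked 22 in replicate 2 and 48 in replicate 1, Mir30e 23 in replicate 2 and 45 in replicate 1, and Mir30a 29 in replicate 2 and 44 in replicate 1.

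The remaining counted members were far lower. Mir30c-2 had 1986 reads in replicate 2 (646 CPM) and 186 in replicate 1 (41.7 CPM). Mir30c-1 had 1398 reads in replicate 2 (455 CPM) and 195 in replicate 1 (43.7 CPM). Mir30b had 1011 reads in replicate 2 (329 CPM) and 466 in replicate 1 (105 CPM). All 3 had a higher CPM in replicate 2, and the gap was wider for the Mir30c genes than for Mir30b.

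**Figure D1:**
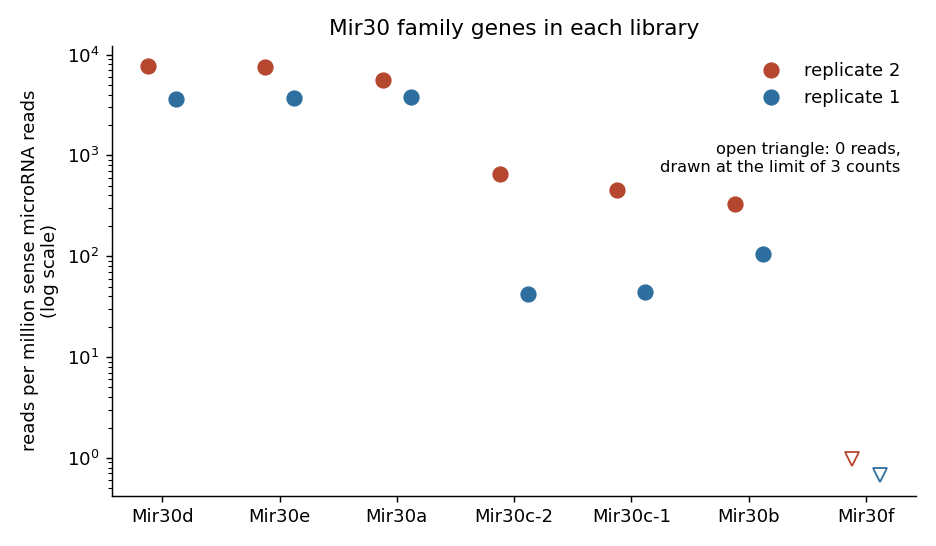
CPM (vertical axis, log scale) of each Mir30 gene (horizontal axis) in replicate 2 and replicate 1, 1 point per library. Mir30d, Mir30e and Mir30a lie between 3593 and 7626 in both libraries, the Mir30c genes lie at 646 and 455 in replicate 2 and at 41.7 and 43.7 in replicate 1, and Mir30f, with 0 reads, is drawn as an open triangle at the limit of 3 counts.

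The order of the members by assigned reads differed between the libraries. In replicate 2 the order was Mir30d, Mir30e, Mir30a, Mir30c-2, Mir30c-1 and Mir30b. The counting intervals of the first 2 overlapped, at 0.753 to 0.772% for Mir30d and 0.746 to 0.765% for Mir30e, and those of the other neighbours in that order did not. In replicate 1 the order was Mir30a, Mir30e, Mir30d, Mir30b, Mir30c-1 and Mir30c-2. There the intervals of Mir30a (0.371 to 0.383%) and Mir30e (0.366 to 0.377%) overlapped, as did those of Mir30c-1 (0.00378 to 0.00503%) and Mir30c-2 (0.00359 to 0.00482%).

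Within the family, Mir30d made up 34.3% of reads in replicate 2 and 31.9% in replicate 1, and Mir30e 34.0% in replicate 2 and 33.0% in replicate 1. Mir30a made up 25.3% in replicate 2 and 33.4% in replicate 1, the only one of the 3 leading genes with a smaller part in replicate 2. The Mir30c genes together made up 4.95% in replicate 2 and 0.759% in replicate 1, leaving out any 5p reads that mapped to both. Mir30b made up 1.48% in replicate 2 and 0.928% in replicate 1. By location, the chromosome 4 genes held 36.0% of the family's reads in replicate 2, against 33.4% in replicate 1, and the chromosome 15 genes 35.8% in replicate 2 and 32.8% in replicate 1. The chromosome 1 genes held 28.2% in replicate 2 and 33.8% in replicate 1.

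**Figure D2:**
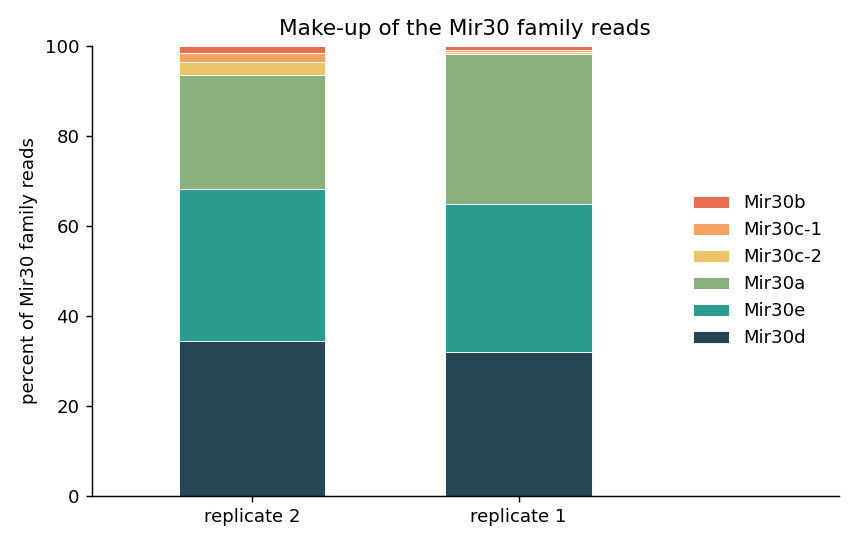
Percent of the family's assigned reads (vertical axis) from each counted Mir30 gene, as 1 stacked bar each for replicate 2 and replicate 1. Mir30d, Mir30e and Mir30a fill 93.6% of the replicate 2 bar and 98.3% of the replicate 1 bar, and the Mir30c genes fill 4.95% of the first and 0.759% of the second.

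Mir30f had 0 sense reads in either library, which allows up to a CPM of 0.976 in replicate 2 and one of 0.673 in replicate 1, the level of 3 counts. Its mature form is the reverse complement of Mir30e hairpin bases, 19 of its 22 bases lying opposite miR-30e-3p. The antisense column of Mir30f held 23209 reads in replicate 2, against 16561 in replicate 1, exactly the sense counts of Mir30e. In the column that ignores strand Mir30e had 0 reads in both libraries. Mir384, the other gene with the GUAAACA seed, had 0 reads in replicate 2 and 7 in replicate 1. Counts per gene do not separate the 5p from the 3p arm, so the reads that carry this seed could not be summed.

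By the rule given above, 3 of the 6 tested members were called higher in replicate 2, Mir30b, Mir30c-1 and Mir30c-2, and 0 were called lower. By the same rule 17.6% of all genes tested were higher in replicate 2 (72 genes), 36.1% were lower (148 genes) and 53.7% were past the threshold in either direction. The test compares reads of 2 libraries, measures departure from counting noise and has no further replicate behind it.

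Mir30c-2 had the highest ratio, a log2 value of 3.32 for replicate 2 over replicate 1 (95% counting interval 3.11 to 3.55), with an adjusted p too small to be stored. Mir30c-1 followed at 2.75 (2.54 to 2.98, exact binomial test, adjusted p = 5.18e-208). Mir30b stood at 1.03 (0.87 to 1.19, exact binomial test, adjusted p = 4.41e-39), close to the threshold. With the genes of the Dlk1-Dio3 domain left out of the scaling, Mir30b fell short at 0.89, against a background of 15.9% of genes higher. Counting the gene itself, 2.68% of all genes tested had a ratio at least as high as that of Mir30c-2. The shares were 4.63% for Mir30c-1 and 19.5% for Mir30b. Ratios of the Mir30c genes cover assigned reads only, which may miss their shared 5p form.

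The leading genes were not past the threshold. Mir30d had a log2 ratio of 0.46 (0.43 to 0.49) and Mir30e one of 0.40 (0.37 to 0.43), both beyond counting noise but under the required size. Mir30a stood at −0.05 (−0.08 to −0.02), and its sign turned under other scalings, to 0.23 with the size factors of DESeq2 and 0.58 by total reads. Scaled by total reads, Mir30d (1.09) and Mir30e (1.02) passed the threshold as well, which made 5 members higher and 0 lower, while 32.9% of all genes were higher. With DESeq2 size factors the 3 calls were those of TMM, and 24.6% of all genes were higher. The summed family had a log2 ratio of 0.35 (0.34 to 0.37).

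Scaling moved every ratio by the same amount, so the members are also given relative to all genes. The median log2 ratio of the 410 genes was −0.33 under TMM and stood 0.28 higher with DESeq2 size factors and 0.63 higher by total reads. Of all genes, 72 were higher and 148 lower in replicate 2 under TMM, 101 and 127 with DESeq2 size factors, 135 and 115 by total reads, and 114 and 123 with TMM on genes of at least 100 reads. All 6 tested members lay above the median of all genes, by 0.28 for Mir30a, 0.73 for Mir30e, 0.79 for Mir30d, 1.36 for Mir30b, 3.08 for Mir30c-1 and 3.65 for Mir30c-2 on the log2 scale. That reference includes the 55 tested Dlk1-Dio3 genes, with log2 ratios from −9.54 to −2.79, and was not computed without them. All of them lie below the median, so without them it would be higher and each member's excess smaller. Mir30a lay close to the median, with 55.9% of genes below, so its place above the median depends on the genes included. The median of the 6 members was 0.74 under TMM, 1.08 above that of all genes. The spread among members, 3.37 from Mir30a to Mir30c-2, does not depend on the scaling.

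**Figure D3:**
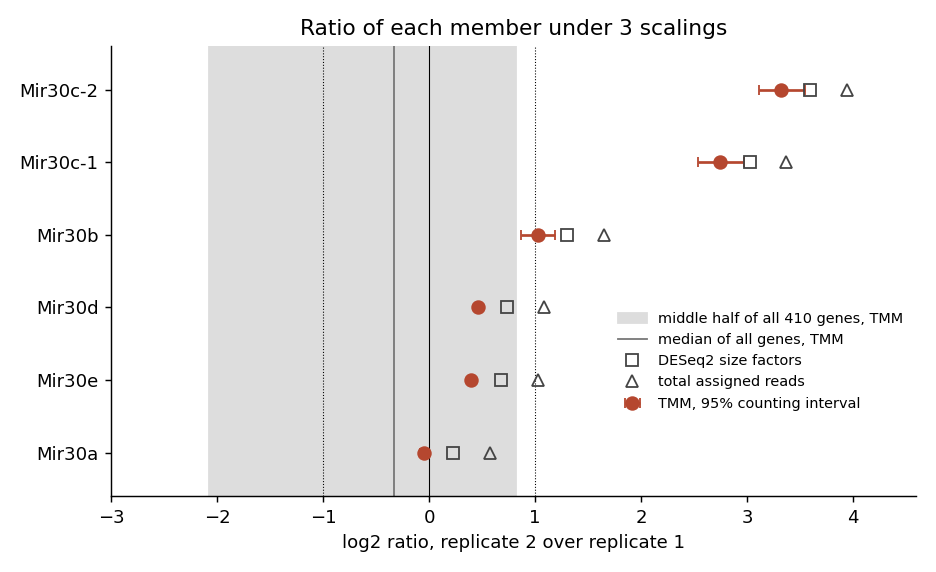
Log2 ratio of replicate 2 over replicate 1 (horizontal axis) for the 6 tested members, with 95% counting intervals under TMM (filled circles) and the values with DESeq2 size factors (squares) and total reads (triangles). The vertical grey line is the median of the 410 genes under TMM (−0.33), the grey band covers their middle quartiles and dotted lines mark the log2 threshold of 1. The Mir30c genes lie beyond the threshold under all 3 scalings, and Mir30a turns from −0.05 under TMM to 0.23 and 0.58.

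The spread of the pair itself was wide. The common dispersion of edgeR, estimated from both libraries as 1 group, was 1.23, a biological coefficient of variation of 1.11. With that dispersion the edgeR exact test called 0 of the 6 members and 0 of 410 genes, while 28 genes had an unadjusted p under 0.05, and the exact binomial test called 220. The smallest unadjusted p among members was 0.241, for Mir30c-2. That dispersion contains the difference under test.

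**Figure D4:**
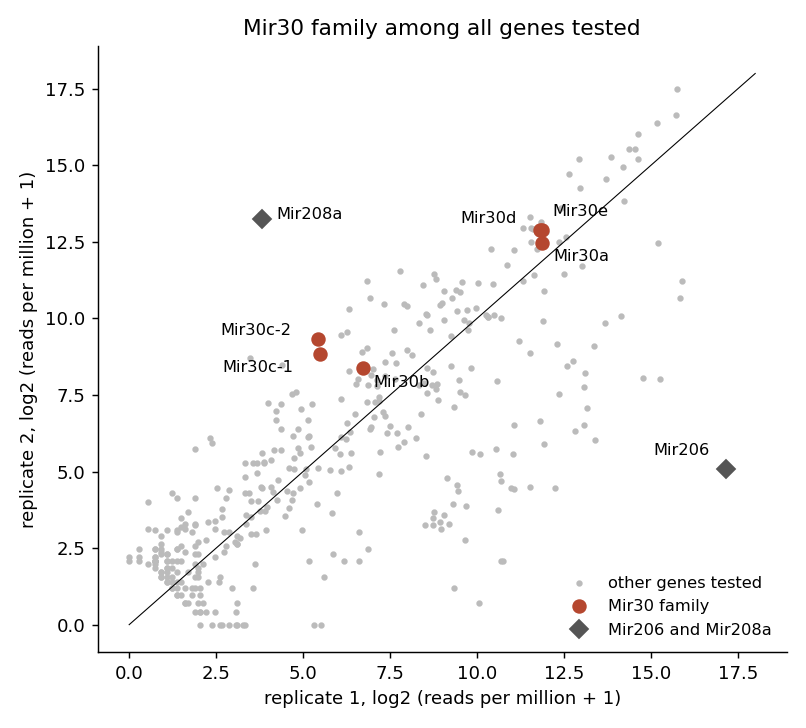
Log2 of CPM plus 1 in replicate 2 (vertical axis) against replicate 1 (horizontal axis) for the 410 genes tested, with the line of equal values, the 6 tested Mir30 genes in red and the tissue markers Mir206 and Mir208a as diamonds. Mir30c-2 (646 CPM in replicate 2 and 41.7 in replicate 1) and Mir30c-1 (455 in replicate 2 and 43.7 in replicate 1) lie farthest from the line among members, and Mir206 and Mir208a lie far from it on opposite sides.

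Ratios between genes of 1 library need no scaling between libraries. Genes of a microRNA cluster are often cut from a common primary transcript. Mir30d had 23.2 times the reads of Mir30b in replicate 2 and 34.4 times in replicate 1, a log2 change of −0.57 (−0.73 to −0.41). Mir30e had 16.6 times the reads of Mir30c-1 in replicate 2 and 84.9 times in replicate 1, a log2 change of −2.35 (−2.57 to −2.14). Mir30a had 8.69 times the reads of Mir30c-2 in replicate 2 and 90.3 times in replicate 1, a log2 change of −3.38 (−3.60 to −3.16). In all 3 clusters the leading gene thus held less of the pair's assigned reads in replicate 2, by more than counting error. In the pairs with Mir30c-1 and Mir30c-2, reads of the mature form shared by the Mir30c genes may be missing from the counts. The intervals do not cover such reads, so how far the levels within those pairs changed cannot be told.

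**Figure D5:**
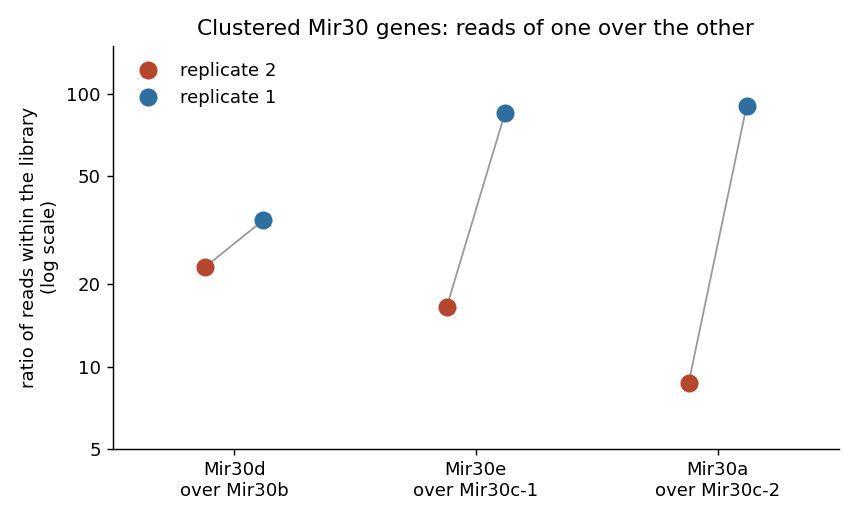
Reads assigned to the leading gene of each cluster over those assigned to its neighbour (vertical axis, log scale) in replicate 2 and replicate 1, 1 point per library. The ratio is lower in replicate 2 in all 3 pairs, 23.2 against 34.4 for Mir30d over Mir30b, 16.6 against 84.9 for Mir30e over Mir30c-1, and 8.69 against 90.3 for Mir30a over Mir30c-2.

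In assigned reads, a change as large as that of Mir30d and Mir30b was common among neighbouring microRNA genes. Changes as large as those of the pairs with Mir30c genes were uncommon, but their counts may miss reads of the shared mature form. Of 102 pairs of adjacent genes on the same strand, within 20000 bases and with at least 10 reads in each library, the median absolute difference in log2 ratio was 0.92. Of these pairs, which include those of the family, 73 differed at least as much as Mir30d and Mir30b, 10 at least as much as Mir30e and Mir30c-1, and 6 at least as much as Mir30a and Mir30c-2. Outside the Dlk1-Dio3 domain 59 pairs remained with a median of 0.82, of which 41, 6 and 3 differed at least as much.

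Members on different chromosomes were set side by side in the same way. Mir30c-2 had 1.42 times the reads of Mir30c-1 in replicate 2 and 0.954 times in replicate 1, a log2 change of 0.57 (0.27 to 0.88). Mir30d had 1.01 times the reads of Mir30e in replicate 2 and 0.967 times in replicate 1, a log2 change of 0.06 (0.02 to 0.10). Mir30d had 1.36 times the reads of Mir30a in replicate 2 and 0.954 times in replicate 1, and Mir30e had 1.34 times those of Mir30a in replicate 2 and 0.986 times in replicate 1. Of the 4 ratios, that of Mir30d to Mir30e moved least, and the wide interval of the Mir30c ratio covers the changes of the other two.

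The Mir30c genes can be read against other genes with a shared mature form. Among tested genes with an entry in the RefSeq table, 48 had a mature form found at another gene, and 6 of these (12.5%) were higher in replicate 2 and 16 (33.3%) lower, with a median log2 ratio of −0.38. Of the 323 with no shared form, 59 (18.3%) were higher and 122 (37.8%) lower, with a median of −0.45. Of the 48 genes, 3 had a ratio at least as high as that of Mir30c-1, counting the Mir30c genes themselves. Among the 323 with no shared form, 15 did. The groups also differed in depth, with a median of 212 reads over both libraries for the 48 genes and 596 for the 323. The 55 tested Dlk1-Dio3 genes, all lower in replicate 2, were not set apart here. Likeness of the medians and of the shares lower therefore cannot be read as an effect of sharing or not sharing a form.

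The genes nearest to the summed family in log2 CPM over the 2 libraries were Mir26b, Mir139, Mir22, Mir99a and Mirlet7b. Likeness was Euclidean distance, and Mir26b, at 0.28, held 2.40% of replicate 2 and 1.35% of replicate 1. The others lay at distances of 0.53 to 0.93. With 2 libraries this likeness is one of level and ratio only.

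Of the families set beside it, the Mir26 family held 2.40% of replicate 2 and 1.35% of replicate 1, with 0 of 3 tested members higher and 2 lower and a median log2 ratio of −1.07. The Mir29 family, repressors of collagen genes, held 0.0816% of replicate 2 and 0.0107% of replicate 1, with 1 of 4 members higher and 0 lower and a median of 0.58. The Mir30 median was 0.74. Of all genes tested, 17.6% were called higher and 36.1% lower. Summed over members, the log2 ratio was 2.30 for Mir29, 0.35 for Mir30 and 0.20 for Mir26, so Mir29 was highest by the sum. Mir26b, with nearly all assigned reads of its family, stood at 0.21. The 2 lower members, Mir26a-1 and Mir26a-2, had 3 and 65 assigned reads in replicate 2 and 14 and 129 in replicate 1. Shares, ratios and calls of these families leave out reads mapping to several places. How many of those came from Mir26 or Mir29 genes cannot be told, so the levels of single genes are uncertain. Differences between families were not tested.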

How the data were processed

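The authors deposited raw counts per microRNA gene for 2 libraries, as sense, antisense and strand-blind columns, on mm10 with annotation M21, per the labels and the deposited description. The sources used here name no aligner, no adapter trimming and no molecular identifiers. Sense counts were used, and the column order was read from the values. Sense microRNA reads numbered 3073086 in replicate 2 and 4458853 in replicate 1. Genes with at least 10 reads in total (410) were scaled with TMM (edgeR 4.0.16, R 4.3.3) and compared with a two-sided exact binomial test (scipy 1.17.1), since each library is alone on its side. P-values were adjusted by Benjamini-Hochberg over those genes, and a gene was called with an adjusted p below 0.05 where its log2 ratio was 1 or more in size. Logarithmic CPM values carry a prior count of 1. Intervals are 95%, exact for shares, and cover counting error only, since PCR reads are not independent molecules. The p-values measure the difference between these libraries alone. Size factors of DESeq2 1.42.0, total reads, other TMM gene sets, count filters, the strand-blind column and the edgeR exact test were alternatives. Named genes are every member, Mir384 for its seed, the 5 genes nearest in level, the tissue markers, and the Mir29 and Mir26 families. Members and lists were chosen with earlier results of these data known. The test was checked on simulated counts with counting noise only, which is the noise the test assumes. That check cannot tell how the test behaves at the wider spread of this pair. Sequences are from RefSeq (GRCm38.p6).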

Additional observations from a re-analysis of the deposited data

Results flagged for a closer look

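The antisense column of Mir30f, which no comparison uses, held 23209 reads in replicate 2 and 16561 reads in replicate 1, against 0 sense reads in both. These equal the sense counts of Mir30e, whose gene occupies the same bases on the other strand.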

How the results depend on the processing

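The mean family share of 1.67% ranged from 1.13 to 2.22% when either library was left out and was 0.766% with all reads, mapped or not, as denominator. It was 1.45% in the strand-blind column, where Mir30e has 0 reads and 1.62% without the Mir30c genes, and leaving Dlk1-Dio3 genes out of the total left 2.24% in replicate 2 and 1.68% in replicate 1, which narrows the fold between libraries from 1.97 to 1.34. The summed log2 ratio of 0.35 stayed positive and became 0.63 with DESeq2 size factors, 0.98 by total reads, 0.22 with TMM without Dlk1-Dio3 genes, 0.73 with TMM on genes of at least 100 reads, 0.55 with TMM on all genes (an alternative chosen after seeing the data), 0.50 in the strand-blind column and 0.29 without the Mir30c genes. Under the same settings Mir30a turned positive, at 0.23, 0.58, 0.32 with at least 100 reads, 0.15 on all genes and 0.12 in the strand-blind column, but not without Dlk1-Dio3 genes. Members called were 5 by total reads and 2 without Dlk1-Dio3 genes, and 3 under the other scalings and filters. The edgeR exact test called 0 members and 0 genes, with 28 genes at an unadjusted p under 0.05. Counts over all genes, in either direction, were 158 to 250 under the other alternatives, which tested differing numbers of genes. The strand-blind column left the Mir30d to Mir30b and Mir30a to Mir30c-2 ratios as they were and gives no Mir30e to Mir30c-1 ratio, and leaving out a library leaves no ratio between libraries. No paired analysis was possible because both libraries belong to 1 group. Within replicate 1, Mir30c-1 and Mir30c-2 rest on the fewest counts of the tested members, 195 and 186 reads, and over both libraries and within replicate 2 Mir30b does.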
